A study of Mus musculus with 8 samples.

Results

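The annexins are a family of proteins that bind acidic phospholipids in the presence of calcium, and they were followed here in the developing mouse lung at embryonic day 14.5. The family was chosen by the difference of Anxa8 between mutant and control lungs on these same arrays. The other members were taken by symbol, from a list of 10 annexin genes, and 9 of them were measured, among 22180 genes. Anxa1, Anxa2, Anxa3, Anxa4, Anxa5, Anxa6, Anxa7, Anxa8 and Anxa10 each had exactly 1 probe set with a single gene symbol, so no choice between probe sets had to be made. Anxa11 had 3 probe sets, each of which also listed a pair of predicted genes, and it was therefore not analysed here.

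The mutant group consisted of 4 embryos of genotype Shh-cre:Ezh2-flox/flox, in which Cre under Shh control is meant to remove Ezh2, the histone methyltransferase of the Polycomb complex PRC2, from the lung epithelium. The control group consisted of 4 Shh-cre embryos, so both groups carried the Cre driver, on a mixed C57BL/6 x 129S6 background. Mutants 1 and 2 were littermates (litter 3), as were mutants 3 and 4 (litter 4), controls 1 and 2 (litter 1) and controls 3 and 4 (litter 2). No litter held both genotypes. Each whole lung was hybridised to 1 Affymetrix array.

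Each value is the log2 signal of a probe set as deposited, and the arrays had medians of 7.05 to 7.12. Probe sets differ in how brightly they bind, so levels were compared between embryos and not between annexins. Ezh2 itself had log2 values of 11.80, 11.80, 11.75 and 11.77 in mutants 1 to 4, against 11.84, 11.93, 11.83 and 11.89 in controls 1 to 4, and its log2 change of −0.09 ± 0.05 (SE) did not pass the test (limma, Benjamini-Hochberg adjusted p = 0.652). Whole lung includes many cells in which the driver is not active, and the probes of this set that lie in the floxed part are not known here, so Ezh2 checks the labels only weakly. The lung genes Sftpc and Nkx2-1 had log2 values of 12.81 to 13.11 and 10.63 to 10.85 in mutants, and of 12.62 to 13.02 and 10.71 to 10.94 in controls. By Xist, mutant 3 and controls 1 and 2 were low (6.37 to 6.74) and the other embryos high (12.62 or above), and a low Xist value marks exactly litter 1 among the controls, where the effects of sex and of litter cannot be told apart.

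Annexins share a conserved core of repeats that docks on membranes when calcium rises, while their N-terminal tails differ and bind other proteins, often of the S100 family. They take part in exocytosis and endocytosis, in the repair of torn membranes and, for those that leave the cell, in blood clotting and inflammation. Anxa8 is known from stratified and basal epithelia, and Anxa1, once called lipocortin, is an abundant annexin of epithelia and myeloid cells whose extracellular form acts on formyl peptide receptors and dampens inflammation. In whole tissue, a larger share of cells that express a gene and more RNA per cell cannot be told apart.

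Anxa8 had log2 values of 8.37, 8.45, 8.38 and 7.66 in mutants 1 to 4, against 6.60, 6.48, 6.59 and 6.61 in controls 1 to 4. All 4 mutants lay above all 4 controls, and mutant 4 was well below the other mutants. The group means were 8.21 ± 0.37 in mutants and 6.57 ± 0.06 in controls (SD, n = 4 each), a log2 change of 1.64 ± 0.16 (SE), or 3.13-fold. This difference is the one for which the family was taken up, so it is given as a description, with no test. Without mutant 4 the log2 change was 1.83 ± 0.07 (SE), and over the alternatives it ranged from 1.45 to 1.84.

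Anxa1 rose in mutant lungs as well. Its log2 values were 10.23, 9.91, 10.06 and 10.03 in mutants 1 to 4, against 8.90, 8.98, 9.35 and 9.41 in controls 1 to 4. The groups did not overlap, and the gap between the lowest mutant and the highest control was wider than the range of the mutants. The means were 10.06 ± 0.13 in mutants and 9.16 ± 0.26 in controls (SD, n = 4 each). The log2 change was 0.90 ± 0.12 (SE), with a 95% interval of 0.63 to 1.17, which is 1.86-fold. Limma gave a Benjamini-Hochberg adjusted p of 0.00534 over all 22180 genes. This call held in 23 of 24 alternatives and was lost without litter 4, where the log2 change was 0.91 (limma adjusted p = 0.0579). The fits that leave out a litter hold a single litter in that group and took littermates as independent. The alternatives on the choice of probe set could not move the log2 change of any measured annexin, since each has 1 probe set.

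**Figure D1:**
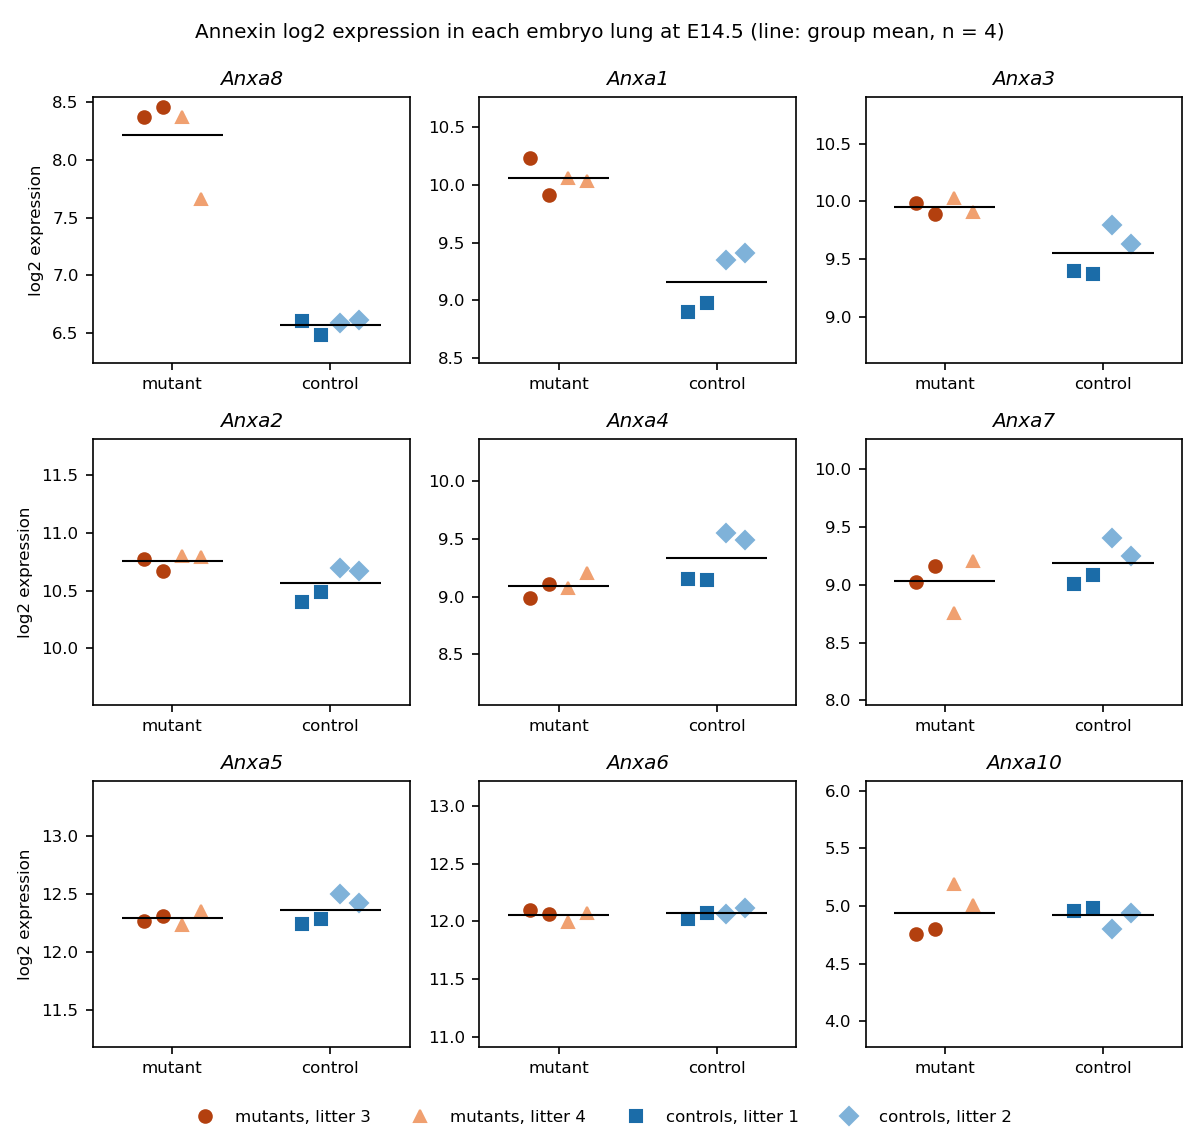
Log2 expression (y axis, each panel spanning the same range of log2 units) of 9 annexins in 4 mutant and 4 control lungs, with symbols by litter and lines at the group means. Anxa8, Anxa1 and Anxa3 show no overlap between mutants and controls, mutant 4 is the low Anxa8 value at 7.66, and the controls of litter 2 lie above those of litter 1 for Anxa1, Anxa2, Anxa3, Anxa4, Anxa5 and Anxa7.

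Of the 8 measured annexins other than Anxa8, 1 was past the threshold in the higher direction (Anxa1), 0 were past it in the lower direction and 7 were not past it. Over all genes, 0.604% were past the threshold in the higher direction and 0.248% in the lower. The median log2 change was 0.02 over the 9 annexins and 0.01 over all genes. Of the 8 tested annexins, 4 changes were above 0 and 4 below 0, and 4 had an unadjusted p under 0.05 by limma. All genes had such a p in 9.87% of cases. Members were picked with earlier results of these data known, so these shares describe the family and are not a test of it.

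The promoters of both annexins that were higher are printed here because PRC2 in mammals is best known at promoters rich in CpG, and the letters show how many CpG each holds. The sequences are the 250 bases before the annotated start, on the gene's strand, from RefSeq (build GRCm38.p6), with each CpG in capitals. Anxa8 lies on chromosome 14 (window chr14:34085729-34085978, plus strand) and Anxa1 on chromosome 19 (window chr19:20390672-20390921, minus strand).
Anxa8: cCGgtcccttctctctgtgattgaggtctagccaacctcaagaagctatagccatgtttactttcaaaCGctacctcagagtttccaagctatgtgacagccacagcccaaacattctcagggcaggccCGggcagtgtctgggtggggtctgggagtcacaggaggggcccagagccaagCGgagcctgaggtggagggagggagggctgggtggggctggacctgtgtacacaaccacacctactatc
Anxa1: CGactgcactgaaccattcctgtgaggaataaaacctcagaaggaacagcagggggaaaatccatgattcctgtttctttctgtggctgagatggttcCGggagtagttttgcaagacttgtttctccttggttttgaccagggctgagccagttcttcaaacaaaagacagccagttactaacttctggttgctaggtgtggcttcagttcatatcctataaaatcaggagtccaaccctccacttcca
The Anxa8 window held 4 CpG and the Anxa1 window 2, against a median of 6 over 32851 windows of the same length, of which 37.8% held fewer CpG than that of Anxa8 and 18.8% fewer than that of Anxa1. Windows were found for 7 of the 9 members (9 windows in all). The letters TATAA occurred in the Anxa1 window, starting 32 bases before the start, and not in the Anxa8 window on either strand. They also occurred on the gene's strand in the windows of Anxa2 (1 match) and Anxa10 (2 matches), and 22.8% of all windows held them on at least 1 strand. The other member windows held 1 CpG (Anxa10), 9 (Anxa2), 13 (Anxa5), 2 and 13 (the 2 windows of Anxa4) and 2 and 16 (those of Anxa7). Anxa4, Anxa7 and Anxa10, which did not pass, thus had windows with as few CpG as that of Anxa1 or fewer. Binding of PRC2 and histone marks were not measured in these samples.

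Anxa3, an annexin abundant in neutrophils, had log2 values of 9.98, 9.89, 10.03 and 9.91 in mutants 1 to 4, against 9.40, 9.37, 9.79 and 9.63 in controls 1 to 4. All mutants lay above all controls, but the controls of litter 2 came near. The log2 change was 0.40 ± 0.10 (SE), with a 95% interval of 0.19 to 0.61, and did not pass (limma, Benjamini-Hochberg adjusted p = 0.105). It passed in 4 of 24 alternatives, each by limma. These were without litter 2 (adjusted p = 0.00778) and without control 3 (adjusted p = 0.03). The others were with array weights (adjusted p = 0.033) and with the Xist level as a covariate (adjusted p = 0.048). The fit without litter 2 held controls of litter 1 only and took littermates as independent. Apart from Anxa8, groups without overlap in the higher direction were thus found for 2 of 8 annexins, against 4.48% of all genes, and in the lower direction for 0 of 8, against 3.6%.

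Anxa2, which forms a complex with S100A10 and binds plasminogen at the cell surface, had log2 values of 10.78, 10.67, 10.80 and 10.79 in mutants 1 to 4, against 10.40, 10.49, 10.70 and 10.67 in controls 1 to 4. Mutant 2 lay within the range of the controls of litter 2. The log2 change was 0.20 ± 0.08 (SE), with a 95% interval of 0.02 to 0.37, and did not pass (limma, Benjamini-Hochberg adjusted p = 0.438).

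Anxa4, an annexin of epithelial membranes, had the lowest log2 change of the family. Its values were 8.99, 9.11, 9.07 and 9.20 in mutants 1 to 4, against 9.15, 9.15, 9.55 and 9.49 in controls 1 to 4. The mutants lay below the controls of litter 2 and overlapped those of litter 1. The log2 change was −0.24 ± 0.10 (SE), with a 95% interval of −0.47 to −0.02, and did not pass (limma, Benjamini-Hochberg adjusted p = 0.461). Without litter 1 the log2 change was −0.43 and passed (limma adjusted p = 0.0486). Without litter 2 it was −0.06 (limma adjusted p = 0.871). Each of these fits held controls of a single litter and took littermates as independent.

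Anxa7, also called synexin, which joins secretory vesicles and binds sorcin, had log2 values of 9.02, 9.16, 8.76 and 9.20 in mutants 1 to 4, against 9.01, 9.08, 9.40 and 9.25 in controls 1 to 4. The groups overlapped, with mutant 3 lowest. Its log2 change was −0.15, with a 95% interval of −0.42 to 0.12, and did not pass (limma, Benjamini-Hochberg adjusted p = 0.764).

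Anxa5, whose protein binds phosphatidylserine and is used to stain dying cells, ranged from 12.23 to 12.36 in mutants and from 12.24 to 12.50 in controls. Its log2 change was −0.07, with a 95% interval of −0.23 to 0.09. Anxa6, which carries a duplicated annexin core, ranged from 11.99 to 12.10 in mutants and from 12.02 to 12.12 in controls, with a log2 change of −0.01 and a 95% interval of −0.13 to 0.11. Anxa10, known from gastric epithelium, ranged from 4.76 to 5.19 in mutants and from 4.80 to 4.98 in controls, with a log2 change of 0.02 and a 95% interval of −0.19 to 0.23. In each of these 3 genes the groups overlapped and the test was not passed, at limma adjusted p values of 0.822, 0.976 and 0.974. The intervals bound any change of Anxa6 more tightly than that of Anxa5 or Anxa10. No detection calls were at hand, and the low Anxa10 values do not show that the transcript is absent.

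A pair of annexins outside the list of 10, Anxa9 and Anxa13, also had a probe set of their own. Anxa9, which lacks the usual calcium-binding sites, ranged from 7.20 to 7.37 in mutants and from 7.08 to 7.43 in controls. Anxa13, an intestinal annexin, ranged from 5.67 to 5.86 in mutants and from 5.75 to 5.85 in controls. Neither passed the test, at log2 changes of 0.04 (limma adjusted p = 0.922) and −0.04 (limma adjusted p = 0.885).

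Control litters differed in most annexins. In 6 of 9 annexins both controls of litter 2 lay above both controls of litter 1, against 24.1% of all genes, and in 1 of 9 (Anxa10) both lay below, against 17.6%. The litter difference, litter 2 minus litter 1, was 0.44 for Anxa1, 0.37 for Anxa4, 0.33 for Anxa3, 0.28 for Anxa7, 0.24 for Anxa2 and 0.20 for Anxa5. It was 0.06 for Anxa8 and 0.05 for Anxa6. The median over the 9 annexins was 0.24, and over all genes 0.01. Among mutants, litter 4 lay above litter 3 without overlap for Anxa2 and Anxa10 (2 of 9, against 24.9% of all genes) and below it for 0 of 9, against 20%. With 2 embryos per litter these differences have no test.

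The size of a change therefore depends on the control litter. Anxa1 was 1.12 higher in mutants than in litter 1 and 0.68 higher than in litter 2. Anxa3 was 0.57 and 0.24 higher, and Anxa2 0.32 and 0.07 higher, in the same order, all as log2 differences. For Anxa8 both values were close, at 1.67 and 1.62. Among the 5 embryos with a high Xist value (3 mutants and 2 controls), Anxa1 averaged 10.06 in mutants and 9.38 in controls and still passed in a fit with no litter block (limma adjusted p = 0.0258). In these embryos, apart from Anxa8, the mutants lay above the controls without overlap for Anxa1 and Anxa3, against 13.1% of all genes, and below them for Anxa4, Anxa5 and Anxa7, against 15.2%. These embryos leave out litter 1, so what this adds to the litter values cannot be told apart from them.

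**Figure D2:**
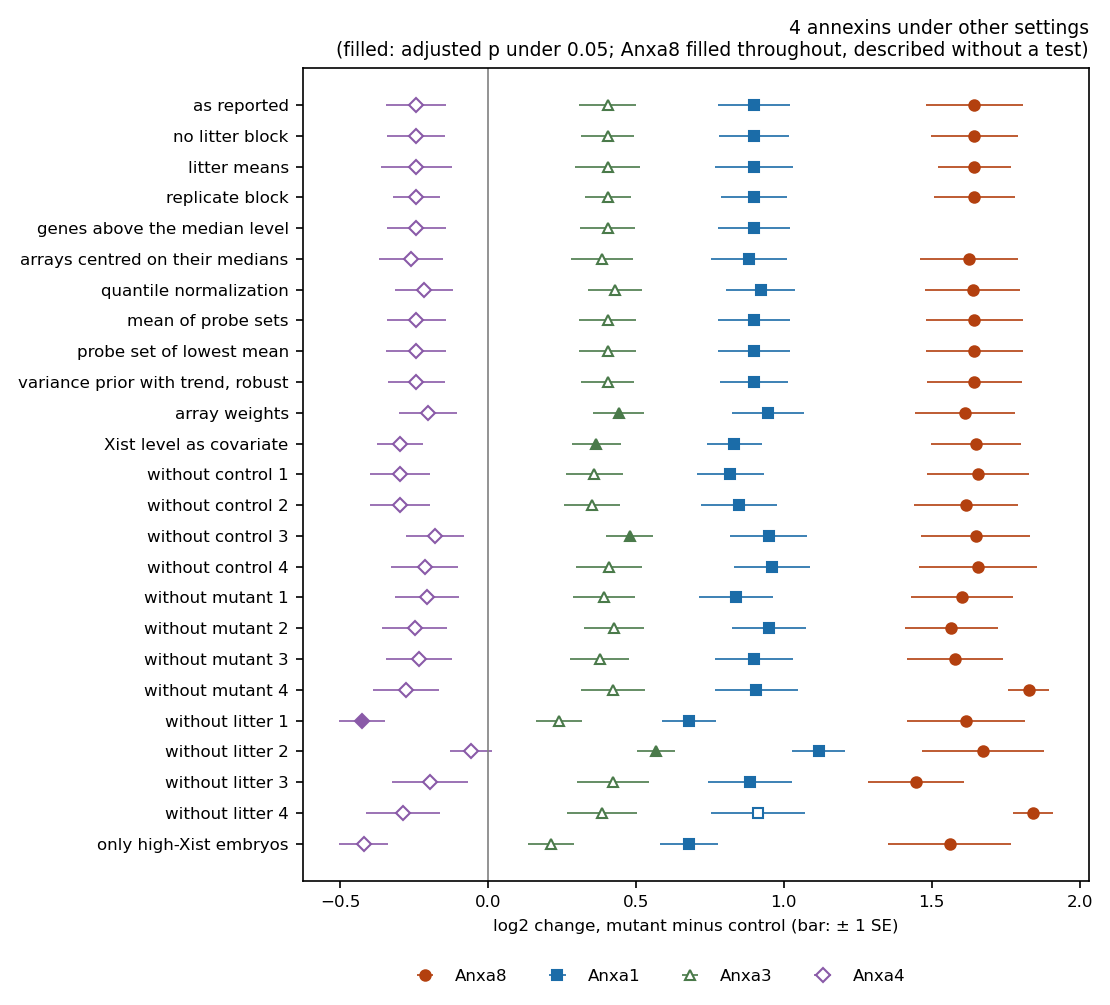
Log2 change (mutant minus control, x axis, bars of 1 SE) of Anxa8, Anxa1, Anxa3 and Anxa4 under each setting (rows). Anxa1 is filled (adjusted p under 0.05) in all settings but the one without litter 4, and all 4 genes keep the side of 0, with Anxa4 nearest to 0 (−0.06) without litter 2; no Anxa8 value was obtained when only genes above the median level were kept.

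Proteins that bind annexins were measured for 12 of 13 listed genes. None passed the test in either direction by limma, against 0.604% of all genes higher and 0.248% lower. An unadjusted limma p under 0.05 was found for 3, against 9.87% of all genes. The median log2 change of this list was 0.04. S100a6, whose calcium-binding protein attaches to several annexins, had log2 values of 8.08, 7.92, 8.01 and 8.25 in mutants 1 to 4, against 7.49, 7.44, 7.78 and 7.63 in controls 1 to 4. All mutants lay above all controls. Its log2 change of 0.48 ± 0.10 (SE) lay just outside the threshold (limma adjusted p = 0.0518), and 9 of 24 alternatives put it inside, with adjusted p from 0.0173 to 0.226 over all of them. S100a10, the partner of Anxa2, had log2 values of 11.65 to 11.77 in mutants and 11.22 to 11.74 in controls, where both controls of litter 1 lay below both of litter 2. Its log2 change was 0.27 ± 0.11 (SE) and did not pass (limma adjusted p = 0.441). Without litter 2 it was 0.47 and passed (limma adjusted p = 0.0184). That fit held controls of litter 1 only and took littermates as independent. S100a11, the partner of Anxa1, had a log2 change of 0.15, Sri, the gene of sorcin, −0.18, and Fpr2, a formyl peptide receptor gene, 0.02, and these did not pass.

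Over the 16 measured genes of the S100 family, 0 passed by limma. In 2 the unadjusted limma p was under 0.05, against 9.87% of all genes. In this family 14 changes were above 0, against 11728 of 22180 over all genes, with a median log2 change of 0.09. S100a1 had a log2 change of 0.33 with a 95% interval of −0.14 to 0.79. Its mutants (8.29 to 8.68) lay within the range of the controls (7.69 to 8.77). Without litter 2 the change was 0.75 and passed (limma adjusted p = 0.0421), and without litter 1 its sign turned. Both fits took littermates as independent. Of 10 measured genes of membrane repair 0 passed by limma, and the median log2 change was 0.02. An unadjusted limma p under 0.05 was found for 1 of these 10, against the same 9.87%. Myof, the gene of myoferlin, had a log2 change of 0.46 with a 95% interval of −0.19 to 1.11, since its controls ranged from 8.97 to 10.58. Dysf, the gene of dysferlin, a protein that reseals membranes, had log2 values of 8.67 to 8.80 in mutants and 8.49 to 8.57 in controls. Its log2 change of 0.21 ± 0.06 (SE) did not pass (limma, Benjamini-Hochberg adjusted p = 0.186), and its other probe set gave −0.05.

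**Figure D3:**
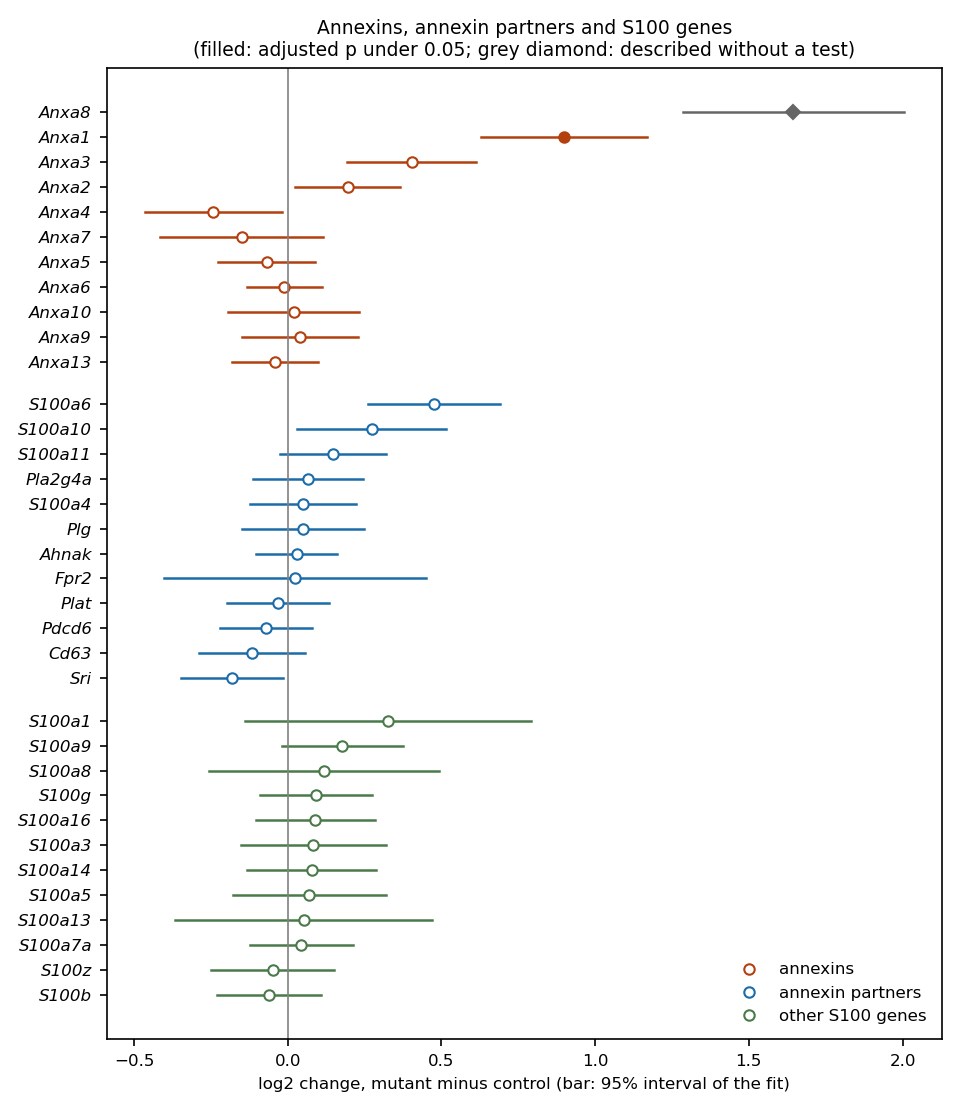
Log2 change (mutant minus control, x axis, bars are 95% intervals, 4 embryos per group) of 11 annexins, 12 annexin partners and the other S100 genes. Anxa1 is the filled circle (adjusted p under 0.05), Anxa8 is a grey diamond because it was described without a test, and S100a6 lies just outside the threshold at 0.48.

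Markers of other cells were read beside Anxa8 and Anxa1. Of 15 basal cell markers 5 rose (Trp63, Krt15, Krt17, Dapl1 and Itgb4), 1 fell (Aqp4) and 9 did not pass, and the mean log2 level of the list was 8.37 to 8.44 in mutants and 7.98 to 8.07 in controls. The median log2 change of this list was 0.14, below its mean of 0.39. Of 13 markers of stratified epithelium and oesophagus 3 rose (Krt4, Pax9 and Grhl3) and 0 fell, with a mean log2 level of 6.60 to 6.69 in mutants and 6.31 to 6.41 in controls. Here the median log2 change was 0.08, below the mean of 0.30. Among late markers in this list, Sprr1a ranged from 6.90 to 7.03 in mutants and from 6.37 to 6.69 in controls, without overlap, and its log2 change of 0.36 did not pass (limma adjusted p = 0.0997). Ivl and Krt13 overlapped between groups and did not pass, at log2 changes of 0.18 for Ivl and −0.01 for Krt13. Of 14 mesothelial markers 1 rose (Upk1b, log2 change 0.46) and 0 fell, and the list level was 8.47 to 8.54 in mutants and 8.36 to 8.45 in controls. The part of these cells in the annexin values was not tested.

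Of 14 general epithelial markers 1 fell (Foxa1) and 0 rose, with a level of 9.83 to 9.89 in mutants and 9.89 to 10.04 in controls. Of these 14 changes 3 were above 0, and 5 had an unadjusted p under 0.05 by limma, all 5 lower in mutants. Over all genes 9.87% had such a p. Of 10 myeloid markers 0 passed by limma and 0 had an unadjusted p under 0.05, with a level of 8.06 to 8.31 in mutants and 8.03 to 8.17 in controls. The leukocyte gene Ptprc, at 6.22 to 6.50 in mutants and 6.20 to 6.30 in controls, did not pass either. Of 10 endothelial markers 0 passed and 1 had an unadjusted p under 0.05 by limma. Of 8 smooth muscle markers 1 fell (Cnn1, log2 change −0.46) and 0 rose. All 8 changes were below 0, against 10452 of 22180 over all genes. The list level was 9.64 to 9.83 in mutants and 9.89 to 10.04 in controls, without overlap. Of 5 measured markers of neurons and glia 1 fell (Ret, log2 change −0.43) and 0 rose, with a level of 7.04 to 7.08 in mutants and 6.97 to 7.20 in controls. In this list 2 changes were above 0, the larger in Stmn2 (0.25), where all mutants lay above all controls without passing (limma adjusted p = 0.301). None of 7 markers of cardiac muscle and 6 of thymus and liver passed, and 0 of either list had an unadjusted p under 0.05 by limma. All changes of both lists were above 0, as were 9 of 10 in the endothelial list, against 11728 of 22180 over all genes. The part of smooth muscle and nerve in the annexin values was not tested either. These lists were chosen with earlier results known, and their counts stand against 0.604% of all genes that rose and 0.248% that fell.

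The genes beside Anxa8 on chromosome 14 did not pass the test. The 3 nearest measured genes on each side of Anxa8 were Gm5460, A630023A22Rik, Antxrl, Npy4r, Gprin2 and Syt15, and their log2 changes ran from −0.04 (Antxrl) to 0.09 (Gprin2). None passed (limma adjusted p = 0.725 to 0.981). RefSeq places A630023A22Rik across all of Anxa8 on the opposite strand. Its log2 change was −0.03, with a 95% interval of −0.17 to 0.12. Beside Anxa1, the retinaldehyde dehydrogenase gene Aldh1a1 had log2 values of 8.93, 8.90, 8.93 and 8.88 in mutants 1 to 4, against 9.41, 9.14, 10.05 and 9.32 in controls 1 to 4. Its log2 change of −0.57 ± 0.17 (SE) pointed the other way from Anxa1 and did not pass (limma, Benjamini-Hochberg adjusted p = 0.239). Taking 3 neighbours on each side of all 9 annexins gave 54 genes, with a median log2 change of −0.001. Of these 54, 0 passed by limma, against 0.604% of all genes higher and 0.248% lower. An unadjusted limma p under 0.05 was found for 8 of them, against 9.87% of all genes.

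**Figure D4:**
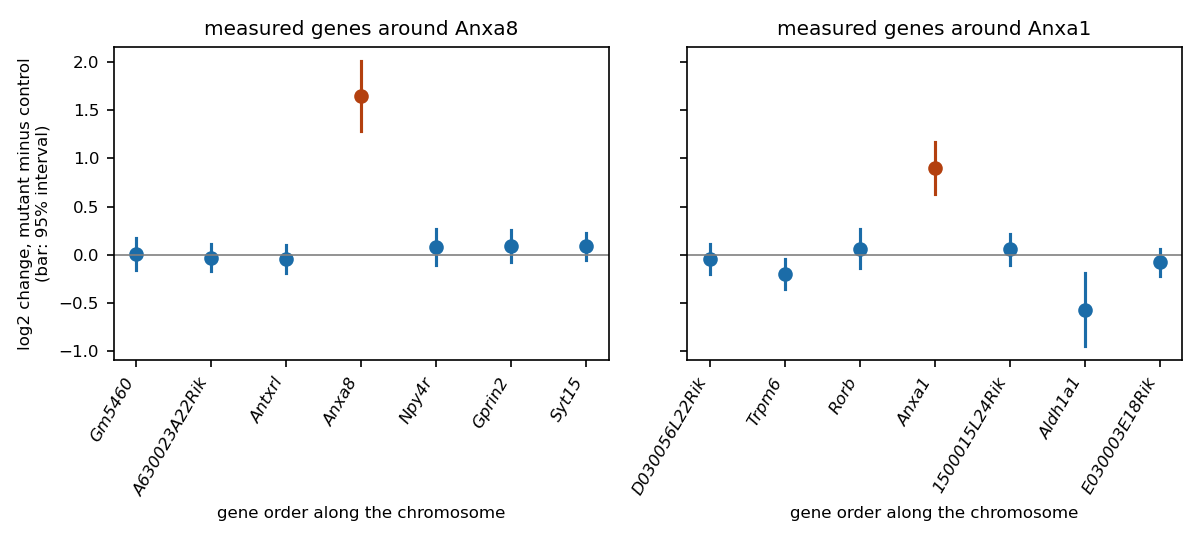
Log2 change (mutant minus control, y axis, bars are 95% intervals, 4 embryos per group) of Anxa8 (left) and Anxa1 (right) and the 3 nearest measured genes on each side in chromosome order. Anxa8 at 1.64 and Anxa1 at 0.90 stand above their neighbours, which lie between −0.57 (Aldh1a1) and 0.09. The family was chosen by the Anxa8 difference, so the bar of Anxa8 is a description and not a test.

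The genes whose profiles over the 8 embryos lay nearest to Anxa8 were sought by the root mean square difference of mean-centred log2 values, leaving out predicted gene models and clones. They were Mir196a-1, a microRNA gene of a Hox cluster (0.26 log2 units), Dglucy, a glutamate cyclase gene (0.28), Eda2r, a receptor of the TNF receptor family (0.30), Krt4, a keratin of stratified epithelium (0.30), and Dapl1 (0.30). The median gene stood 0.86 away. In none of these genes was mutant 4 the lowest mutant, as it was for Anxa8. In mutant 4, Mir196a-1 was at 7.56, against 7.45 to 7.52 in the other mutants, and Dglucy at 8.85, against 8.80 to 8.97. This likeness is over 8 embryos of 4 litters and was chosen for, so it is a description.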

How the data were processed

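Gene expression was measured in 8 whole lungs with 1 array each. The deposited table holds log2 values per probe set, made by the authors with RMA in the package oligo, per the submitters' processing notes. Not given in the sources used here were the version and options. Quantile scaling within RMA gives every array a like distribution, which hides a shift common to most genes, and changes of dim genes are drawn towards 0. With arrays, the precision is limited by how many there are.

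The platform annotation gave a single symbol for 23521 of 41345 probe sets and several for 1814, and it did not list 16010. By gene number, 23328 single symbols were found in RefSeq (GRCm38.p6), with 0 updated. The files' build is not given. Each gene took its probe set of highest mean, which gave 22180 genes. Limma 3.58.1 in R 4.3.3 fitted genotype and treated litter as a random effect (duplicateCorrelation, 0.153), with empirical Bayes moderation, two-sided tests, Benjamini-Hochberg adjustment over all genes and a threshold of 0.05. The fit was run on simulated normal data with known changes, which does not test how well it suits these embryos. Embryos are separate animals, and littermates share a dam. Named genes were the annexins, Ezh2 and Xist, the members that passed and the 2 largest changes in each list of annexin partners, S100, membrane repair and copine genes, the genes flanking Anxa8, the 5 genes nearest to Anxa8 by profile, and defining markers. S100a11, Sri, Fpr2, Sftpc, Nkx2-1, Ptprc, Sprr1a and Ivl were named outside this rule, after their values were seen. So were Krt13, Aldh1a1, Stmn2 and the genes nearest to Anxa1. The members and lists were chosen with earlier results of these data known. Same-numbered embryos did not deviate together over all genes (correlations of −0.272 to 0.027), and the numbers were not taken as pairs. Litter differences also enter these deviations, so a pairing is not excluded. Alternatives covered litters, left-out embryos, scaling, filter, probe sets, variance prior, array weights and Xist. The choice of high-Xist embryos, the comparison of litters, the promoter counts, the neighbours of annexins other than Anxa8 and the profile of Anxa1 were added after values were seen. Figures used Python 3.11.15 and matplotlib 3.10.9.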

Additional observations from a re-analysis of the deposited data

Results flagged for a closer look

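By Dixon's criterion, 5 of the 70 sets of 4 embryos examined held 1 value far from the other 3, and about 1 in 20 such sets (3.5 here) would do so by chance. The lowest value came from mutant 4 for Anxa8 (log2 value 7.66) and from mutant 2 for Anxa2 (10.67) and S100a1 (8.29). Mutant 3 was lowest for Antxrl (5.71), a neighbour of Anxa8, and control 3 was highest for Dapl1 (7.43).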

How the results depend on the processing

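Over all genes, 134 were higher and 55 lower in mutants. Leaving out 1 embryo at a time gave 73 to 157 higher and 28 to 75 lower. The fewest came without mutant 4 (73 and 28) and then without control 4 (89 and 32). Litter means gave 65 and 33, no litter block 95 lower, the Xist covariate 361 and 313, no litter 1 90 lower, no litter 4 75 and 23, and high-Xist embryos alone 79 higher. The fits without a litter took littermates as independent. Of the annexins other than Anxa8, 1 was higher (Anxa1) and 0 lower. This became 0 higher without litter 4, 2 higher (Anxa1 and Anxa3) without litter 2, with array weights and with the Xist covariate, and 1 lower without litter 1 (Anxa4). Over left-out embryos it was 1 to 2 higher, with Anxa3 added without control 3. The replicate block left 1 annexin higher, with 140 genes higher and 55 lower, and changed no annexin call. Changes of genes that did not pass turned sign as follows, with the lowest and highest value over the 8 left-out embryos after each. Anxa6 became 0.0137 after quantile normalization, 0.0127 without litter 2 and 0.0133 without litter 4 (left-out embryos: −0.0261 to 0.0103). Anxa10 became −0.0445 with array weights, −0.0289 without litter 2, −0.14 without litter 4 and −0.0138 in high-Xist embryos (−0.0592 to 0.0737). Anxa9 became −0.0375 without litter 1 and −0.0744 in high-Xist embryos (−0.0054 to 0.107). Anxa5 became 0.0321 without litter 2, Anxa13 0.013 without litter 3, Dysf −0.046 with the probe set of lowest mean, and S100a1 −0.0951 without litter 1 and −0.122 in high-Xist embryos. Among the neighbours, Gm5460 became −0.0073 after median centring, −0.0041 after quantile normalization, −0.0362 without litter 1, −0.0286 without litter 4 and −0.07 in high-Xist embryos (−0.0472 to 0.04). A630023A22Rik became 0.0203 without litter 1 (−0.0559 to 0.0068), and Antxrl 0.0097 without litter 4 and 0.0363 in high-Xist embryos (−0.062 to 0.0043). The cause of these shifts was not tested.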

Other observations

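Copines, another family of proteins that bind phospholipids with calcium, were measured for 8 of 9 listed genes. By limma 0 passed, against 0.604% of all genes higher and 0.248% lower. An unadjusted limma p under 0.05 was found for 3, against 9.87% of all genes. The median log2 change was 0.08, and over all genes 0.01. Cpne4 had log2 values of 6.04 to 6.46 in mutants and 5.80 to 5.91 in controls, and its log2 change of 0.35 ± 0.09 (SE) did not pass (limma, Benjamini-Hochberg adjusted p = 0.141). It passed with the Xist level as a covariate, at an adjusted p of 0.0172 by the same test. Cpne2 did not pass either, at a log2 change of 0.19.

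The 5 named genes with profiles nearest to Anxa1 over the 8 embryos, sought after its values were seen, were Sgpp2, a sphingosine phosphate phosphatase gene, Lmo7, Lrrn1, Alx1, a homeobox gene, and Sorbs2. They stood 0.11 to 0.14 log2 units from the Anxa1 profile, against 0.49 for the median gene. As in Anxa1, both controls of litter 2 lay above both of litter 1 in Sgpp2 (7.30 and 7.34 against 6.74 and 7.06) and Lmo7 (8.22 and 8.45 against 7.99 and 8.15). The same held in Lrrn1 (9.13 and 9.19 against 8.59 and 8.63) and Alx1 (6.47 and 6.52 against 6.34 and 6.36), but not in Sorbs2. All genes had this in 24.1% of cases, and these 5 were chosen for a profile like that of Anxa1. Their log2 changes were 0.99, 0.74, 0.97, 0.96 and 0.84 in the order named.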
